A study of Mus musculus with 24 samples.

Results

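The exons described here are the cassette exons whose inclusion dropped when wild-type (WT) mouse embryonic stem cells were differentiated to mature neurons. They were selected on WT values from a table of percent spliced in (PSI, the percent of reads over an exon's junctions that include the exon): an exon had to be covered in every ESC and neuron sample of both genotypes, and its mean PSI had to be at least 15 points lower in WT neurons than in WT ESCs. Of 26425 exons with that coverage, among 54141 listed, 489 exons in 412 genes met the rule, against 559 exons that rose by at least 15 points and 25377 that changed by less. Because WT ESC and WT neuron values chose the exons, every statement on the WT change is a description, and tests were made only in slow/slow cells or at stages the rule did not use.

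Poly(A)+ RNA had been sequenced in 3 replicates at each of 4 stages and in each of 2 genotypes, 24 samples in all, with each replicate a separate differentiation. The WT cells (wt/wt) were compared with slow/slow cells (Polr2a[R749H/R749H]), in which both alleles of the gene for the largest subunit of RNA polymerase II had been replaced by homologous recombination with a version that elongates transcripts slowly. ESCs had been kept in 2i medium. NPCs (neural progenitor cells) were taken at day 7 of monolayer differentiation and PSA-NCAM+ cells at day 10 by bead purification, and mature neurons came from NPCs replated at day 7 and grown for 14 more days, so the neurons do not descend from the PSA-NCAM+ cells. WT cells had been plated for differentiation at 10000 and slow/slow cells at 30000 per cm2, a difference that cannot be told apart from genotype at the later stages. The slow/slow samples derive from ESCs made by targeting, and the gene counts do not resolve the point mutation.

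Splicing joins exons after introns are removed, and a cassette exon is either kept or skipped in the mature transcript. Neural cells switch many such exons: the repressor Ptbp1 gives way to its paralogue Ptbp2, and neuronal factors such as Srrm4, Nova, Rbfox and Celf proteins act on neuronal exons and on the exons that they replace. Splice sites are chosen largely while RNA polymerase II is still transcribing, which is why a polymerase that elongates slowly is used to ask how transcription rate bears on exon choice.

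The exons on which the results below turn are shown here, because they differ in size, in partner and in what became of them in slow/slow cells. The capitals mark the exon and the lower-case letters mark the 15 bases of the neighbouring exons on each side in a spliced transcript, 5′ to 3′ on the coding strand. Positions are mm9, as in the deposited table, and the letters come from GENCODE vM21 transcripts of GRCm38 in which an exon of the same gene had the same strand, length and flanking intron lengths. All of them are coding exons. The first is the exon of Tet2, whose product oxidises 5-methylcytosine, at chr3:133142306-133142329 on the minus strand, which showed the largest WT fall of all 489. Then come the alternative exons of Mapk8, which encodes the kinase JNK1, at chr14:34203428-34203499 (lost) and chr14:34203859-34203930 (gained), both on the minus strand. Next are the neighbouring exons of the adhesion molecule gene Cadm1 at chr9:47626817-47626900 (lost) and chr9:47637460-47637492 (gained), on the plus strand. They are followed by the exon of Neil1, a DNA glycosylase of base excision repair, at chr9:56991565-56991626 on the minus strand, which was lost in WT neurons and not in slow/slow neurons. The last are exons that differed between genotypes in NPCs: Nek1, a kinase of cilia, at chr8:63528825-63528956 (plus), Fat1, an atypical cadherin, at chr8:46135196-46135231 (plus), Kif13a, a kinesin, at chr13:46875995-46876033 (minus), and Map3k7, which encodes the kinase TAK1, at chr4:32081849-32081929 (plus).
Tet2: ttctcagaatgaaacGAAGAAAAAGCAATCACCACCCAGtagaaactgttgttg
Mapk8, lost: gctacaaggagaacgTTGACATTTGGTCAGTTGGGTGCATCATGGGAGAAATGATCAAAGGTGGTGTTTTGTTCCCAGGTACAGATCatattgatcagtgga
Mapk8, gained: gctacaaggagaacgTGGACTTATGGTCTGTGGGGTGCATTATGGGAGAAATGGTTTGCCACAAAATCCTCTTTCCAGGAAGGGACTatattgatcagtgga
Cadm1, lost: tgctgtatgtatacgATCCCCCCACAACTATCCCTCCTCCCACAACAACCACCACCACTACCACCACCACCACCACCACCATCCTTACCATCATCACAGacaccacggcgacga
Cadm1, gained: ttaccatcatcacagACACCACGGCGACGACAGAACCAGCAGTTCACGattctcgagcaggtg
Neil1: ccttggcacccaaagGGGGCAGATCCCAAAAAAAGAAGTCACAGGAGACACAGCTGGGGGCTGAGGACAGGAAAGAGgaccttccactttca
Nek1: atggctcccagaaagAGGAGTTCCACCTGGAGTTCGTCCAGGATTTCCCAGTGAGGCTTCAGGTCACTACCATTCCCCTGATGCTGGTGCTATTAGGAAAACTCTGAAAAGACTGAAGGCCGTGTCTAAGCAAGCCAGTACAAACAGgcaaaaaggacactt
Fat1: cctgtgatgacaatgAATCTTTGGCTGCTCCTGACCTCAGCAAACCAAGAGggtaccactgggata
Kif13a: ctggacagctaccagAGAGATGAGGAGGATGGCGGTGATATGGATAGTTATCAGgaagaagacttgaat
Map3k7: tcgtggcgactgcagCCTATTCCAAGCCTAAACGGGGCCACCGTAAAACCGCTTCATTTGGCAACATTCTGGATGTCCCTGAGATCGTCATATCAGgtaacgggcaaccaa

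The Mapk8 exons shared their flanks and their length of 72 bases, and 45 of the 72 positions (62.5%) held the same base. The lost Cadm1 exon ended on the 15 bases that preceded the gained exon, since in the transcripts that carried both the exons were consecutive.

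The depth behind these exons was high. Total gene counts ranged from 32974432 to 104466886 per sample, and the median number of reads that decided inclusion was 210 per exon and sample (5th to 95th percentile, 52 to 1091). The median standard deviation (SD) between replicates of a group was 2.67 PSI points, and it was higher in PSA-NCAM+ cells, at 3.95 points in WT and 3.98 in slow/slow cells. The first PSA-NCAM+ sample of each genotype stood apart, with a summed level of 8 epithelial markers of 7076 CPM (gene counts scaled to library size) against 2871 and 3268 in the other two WT samples, and of 4771 against 944 and 845 CPM in slow/slow samples. Results in PSA-NCAM+ cells are therefore given with and without those samples.

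Most lost exons were included in the majority of ESC transcripts and were only partly lost. In WT ESCs 192 of the 489 exons had a mean PSI of 90 or more, in WT neurons 257 were at 50 or less and 45 at 10 or less, and 3 exons went from at least 90 to at most 10. The 8 largest WT falls were in Tet2, Myo18a (an unconventional myosin), Kidins220 (a scaffold of neurotrophin receptors), Lmtk3 (a membrane kinase), Erc1 (a scaffold of the presynaptic active zone), Mapk8, Sult4a1 (a sulphotransferase family member) and Dst (dystonin, a linker between cytoskeletal filaments). The exons nearest to the threshold were those of Ubqln1, Cblb and Ptdss2 on the inside, with WT changes of -15.13, -15.05 and -15.03 points, and those of Sdccag3, 9030624G23Rik and Nasp on the outside, with -14.99, -14.98 and -14.97 points.

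In slow/slow cells the loss was less complete than in WT. The median change from ESCs to neurons was -25.2 points in WT and -13.6 points in slow/slow cells, and the median over exons of the slow/slow change divided by the WT change was 0.533 (interquartile range 0.313 to 0.760). Computed with 1 slow/slow neuron sample at a time, that ratio was 0.540 ± 0.022 (SD, n = 3). A total of 223 exons had a ratio under 0.5, 33 exons were higher in slow/slow neurons than in slow/slow ESCs and 53 fell at least as far as in WT.

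Selection on the WT values exaggerates a WT change, so the ratio was also read from WT samples that the choice had not used. When exons were chosen on 2 WT replicates per stage and the WT change was read in the replicate left out, 476, 512 and 502 exons were chosen, their median WT changes were -27.2, -23.5 and -23.9 points, and the ratios were 0.529, 0.567 and 0.566. Chosen the other way round, by a fall of at least 15 points in slow/slow cells, there were 276 exons, with median changes of -30.2 points in WT and -23.2 points in slow/slow cells and a ratio of 0.837. The lists shared 221 exons, which was 45.2% of the exons lost in WT and 80.1% of those lost in slow/slow neurons. The 559 exons gained in WT neurons had a median ratio of 0.709, chosen in the same way.

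**Figure D1:**
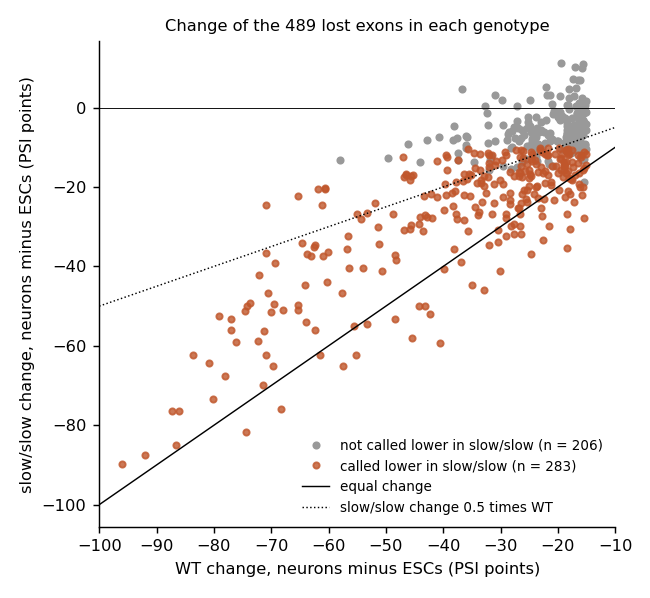
Change of each of the 489 lost exons from ESCs to neurons, in PSI points, in WT (x axis) and slow/slow cells (y axis). Each point is an exon and orange points are the 283 called lower in slow/slow neurons. The solid line marks equal change and the dotted line a slow/slow change of 0.5 times that of WT. Most points lie above the solid line, and all but 33 lie below 0.

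Called by reads in the slow/slow samples, 283 of the 489 exons were lower and 2 were higher in slow/slow neurons than in slow/slow ESCs. An exon was called where the mean PSI differed by more than 10 points and the posterior probability of the direction exceeded 0.95. Of all 26425 exons 1.63% were called lower and 2.46% higher in this comparison. The exon of Tet2 had PSI values of 99.5, 98.9 and 98.6 in WT ESCs and of 0, 5.93 and 3.06 in WT neurons, and it went from 95.6, 98.3 and 96.8 in slow/slow ESCs to 7.73, 13.7 and 0 in slow/slow neurons. This exon was lost almost fully in both genotypes (-96.0 and -89.7 points). The Myo18a exon behaved likewise, from 94.0, 100 and 95.2 in slow/slow ESCs to 10.4, 7.95 and 8.85 in slow/slow neurons (-87.4 points, against -91.9 in WT). All of the 8 exons with the largest WT falls were called lower in slow/slow neurons, with slow/slow changes between -62.4 points in Mapk8 and -89.7 in Tet2.

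The switch of Mapk8 illustrates an exon that went most of the way. The lost exon stood at 93.9, 100 and 97.1 in WT ESCs and at 11.7, 12.5 and 16.1 in WT neurons. In slow/slow cells it went from 86.2, 95.3 and 84.8 to 25.9, 25.9 and 27.3.

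Most of the slow/slow loss took place after the NPC stage. The stage names are those of the labels, and marker levels are given below. Over the 471 exons covered in all samples, the sample medians averaged 85.5 ± 0.49 in WT ESCs, 87.4 ± 0.23 in WT NPCs, 81.8 ± 2.60 in WT PSA-NCAM+ cells and 47.0 ± 1.31 in WT neurons (SD, n = 3). The matching values in slow/slow cells were 83.8 ± 0.89, 81.4 ± 0.33, 76.3 ± 0.58 and 60.9 ± 0.52. Slow/slow cells were thus below WT at the NPC and PSA-NCAM+ stages and above WT in neurons, where low WT values had chosen the exons. The median change per exon from ESCs to NPCs was 0.64 points in WT and -1.47 in slow/slow cells, and from NPCs to neurons it was -27.0 and -12.1 points.

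**Figure D2:**
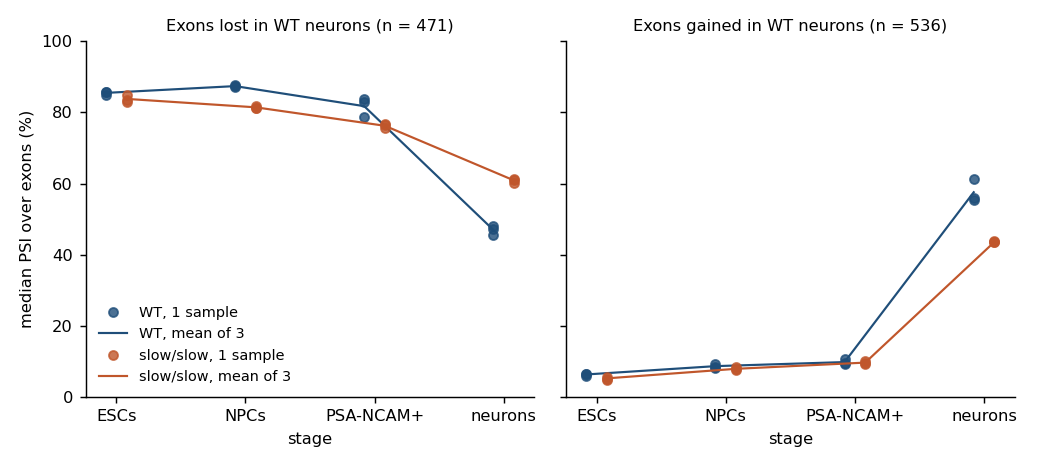
Median PSI (%) over the exons lost (left, 471 exons) and gained (right, 536 exons) in WT neurons, with 1 point per sample, at each stage. Lines join the means of 3 samples in WT (blue) and slow/slow cells (orange). The WT means for the lost exons were at 81.8 or more until the neuron stage. There the means were 47.0 in WT and 60.9 in slow/slow cells.

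Of the 477 exons also covered in every NPC sample, 32 were called lower and 6 higher in slow/slow NPCs than in slow/slow ESCs, where 0.303% and 0.372% of all exons were. From slow/slow NPCs to slow/slow neurons 254 were called lower and 2 higher, against 1.46% and 2.22% of all exons. Both steps share the slow/slow NPC samples. Of the 283 exons lost in slow/slow neurons, 278 could be placed: 204 were called only at the step from NPCs to neurons, 11 only at the step to NPCs, 16 at both and 47 at neither. Each exon called in these comparisons had all samples of one stage above all samples of the other. In exons gained in WT neurons, 458 of 559 were called higher in slow/slow neurons than in slow/slow ESCs, and their median slow/slow change to NPCs was 1.18 points.

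The exons with the least completed loss kept near-ESC inclusion in slow/slow neurons. Among exons with a WT fall of at least 25 points, the smallest slow/slow falls relative to WT were in Neil1, Atp11a (a phospholipid flippase), Ocel1, Tmem175 (a lysosomal ion channel), 5830418K08Rik (Cep295 in GENCODE, a centriole protein), Ddb2 (a sensor of ultraviolet damage), Fam193b and Slc12a2 (the chloride importer NKCC1). They were chosen by this ratio, and none of them was called in slow/slow cells. The Neil1 exon fell from 72.8, 76.3 and 68.0 in WT ESCs to 31.7, 38.4 and 36.9 in WT neurons. In slow/slow cells it was at 70.7, 82.9 and 83.4 in ESCs and 81.4, 81.8 and 88.1 in neurons. Within slow/slow cells the neuron samples therefore lay within or just above the range of the ESC samples.

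The Slc12a2 exon was at 96.7, 100 and 100 in WT ESCs and at 52.5, 68.2 and 61.7 in WT neurons, while slow/slow neurons stayed at 90.6, 93.6 and 100. The exon of 5830418K08Rik fell from 84.3, 91.5 and 85.1 to 57.0, 51.2 and 54.5 in WT and read 86.5, 85.8 and 87.2 in slow/slow neurons. Atp11a and Ddb2 differ from these: the slow/slow ESC samples of Atp11a were spread from 19.4 to 44.6, and those of Ddb2 from 47.2 to 70.2, so that leaving out a single sample turned the sign of their slow/slow change. Tmem175 and 5830418K08Rik, with slow/slow changes of 0.34 points each, turned sign likewise.

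Genotypes were next compared in NPCs, in samples that the choice of exons had not used. There the lost exons were mostly lower in slow/slow cells. Of 477 exons tested, 114 were called lower and 18 higher in slow/slow NPCs, where 1.98% and 0.633% of all exons were called lower and higher. The median difference was -3.03 points over the lost exons and 0 over all exons, and among the 539 gained exons tested 68 were lower and 45 higher. The share over all exons rests largely on exons near full inclusion. A WT ESC mean PSI of 90 or more was found in 75.6% of exons that changed by less than 15 points and in 39.3% of lost exons. In each called exon the samples of the genotypes did not overlap.

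The 114 exons that were lower in slow/slow NPCs had a median PSI of 64.0 in WT ESCs, 77.4 in WT NPCs, 66.2 in WT PSA-NCAM+ cells and 26.7 in WT neurons. In slow/slow cells the medians were 55.7, 54.4, 54.6 and 36.8. The NPC values chose these exons, so that the height of WT over slow/slow cells at that stage is fixed by the choice, and over all 471 lost exons covered in every sample the median WT change from ESCs to NPCs was only 0.64 points. The 6 with the largest difference lie in Nek1, Fat1, Cdk2 (a cell-cycle kinase), Macf1 (a giant linker of actin and microtubules, with 2 exons) and Kif13a. Nek1 read 34.9, 33.3 and 34.4 in WT ESCs and 77.5, 68.9 and 78.4 in WT NPCs, and 5.75, 8.41 and 7.25 in slow/slow ESCs and 7.28, 7.94 and 7.14 in slow/slow NPCs. In neurons the genotypes overlapped, at 18.6, 15.2 and 21.4 in WT and 19.4, 19.3 and 12.4 in slow/slow cells. Cdk2 stood at 66.3, 68.3 and 73.6 in WT NPCs against 23.2, 23.2 and 26.1 in slow/slow NPCs, and the order was reversed in neurons, at 20.3, 21.3 and 22.9 against 35.6, 38.2 and 30.9.

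Fat1 was lower in slow/slow cells at every stage. Its 36-base exon read 70.6, 81.5 and 78.4 in WT NPCs and 27.5, 25.5 and 24.7 in slow/slow NPCs, and 40.5, 35.3 and 36.9 in WT neurons against 25.01, 22.3 and 22.1. Kif13a read 54.1, 62.7 and 58.0 in WT NPCs and 17.6, 9.55 and 21.1 in slow/slow NPCs, and it fell to 2.46 ± 0.59 in WT and 5.48 ± 1.42 in slow/slow neurons (SD, n = 3). Of Macf1, 5 of its 6 lost exons lie in one stretch, chr4:123140781-123153580, and are not independent of each other. The exon at chr4:123142599-123142748 was at 56.9, 62.3 and 48.8 in WT NPCs and at 12.0, 10.4 and 10.7 in slow/slow NPCs.

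The 18 exons that were higher in slow/slow NPCs, chosen likewise on NPC values, had medians of 70.7, 53.5, 66.4 and 39.5 from WT ESCs to neurons and of 84.5, 81.3, 72.2 and 61.8 in slow/slow cells. The largest differences were in Pbrm1 (a bromodomain subunit of the PBAF chromatin remodeller), D19Wsu162e (Wbp1l in GENCODE), Map3k7, the 129-base exon of Eml4 (a microtubule-binding protein), Gtpbp5 and Gatad2a (a subunit of the NuRD repressor complex). Pbrm1 was at 43.8, 43.3 and 43.0 in WT NPCs and at 92.0, 93.6 and 89.5 in slow/slow NPCs, the largest rise. Map3k7 was at 49.2, 51.1 and 52.7 against 84.2, 82.9 and 82.5. Both were also higher in slow/slow PSA-NCAM+ cells. The Eml4 exon read 69.4, 62.1 and 57.1 in WT NPCs and 94.5, 92.3 and 93.6 in slow/slow NPCs, and in neurons the genotypes overlapped, at 63.3 ± 3.28 and 63.7 ± 4.55 (SD, n = 3).

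Cell makeup moved with genotype at this stage. The summed level of 8 pluripotency markers was 2569 to 2631 CPM in WT NPCs and 1527 to 1752 in slow/slow NPCs, that of 8 epithelial markers 1842 to 1966 and 1005 to 1287, and that of 7 neuronal markers 90.9 to 98.8 and 244 to 284. The 6 progenitor markers found summed to 443 to 472 CPM in WT and 619 to 731 in slow/slow NPCs, 8 endoderm markers to 253 to 311 and 538 to 726, and 8 mesenchyme markers to 441 to 501 and 209 to 301. The part of these differences in the exon results was not tested, and in such bulk samples a change in cell types and a change of splicing within cells cannot be told apart. In ESCs the pluripotency markers summed to 6577 to 7047 CPM in WT and 5979 to 6450 in slow/slow cells. The progenitor markers summed there to 628 to 680 and 617 to 655, and the neuronal markers to 206 to 251 and 325 to 385. The neuronal sums of NPCs were thus below those of ESCs in both genotypes, and so was the progenitor sum in WT. These sums rest on a few abundant genes. In mean CPM from WT ESCs to WT NPCs, Sox2 (385 to 241) and Vim (249 to 175) fell. Pax6 (0.19 to 4.30), Nes (18.7 to 33.1), Hes5 and Fabp7 rose. Among neuronal markers Stmn2 (174 to 64.9), Tubb3 (40.9 to 15.8) and Dcx fell there, and Syn1, Syt1, Snap25 and Rbfox3 rose.

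**Figure D3:**
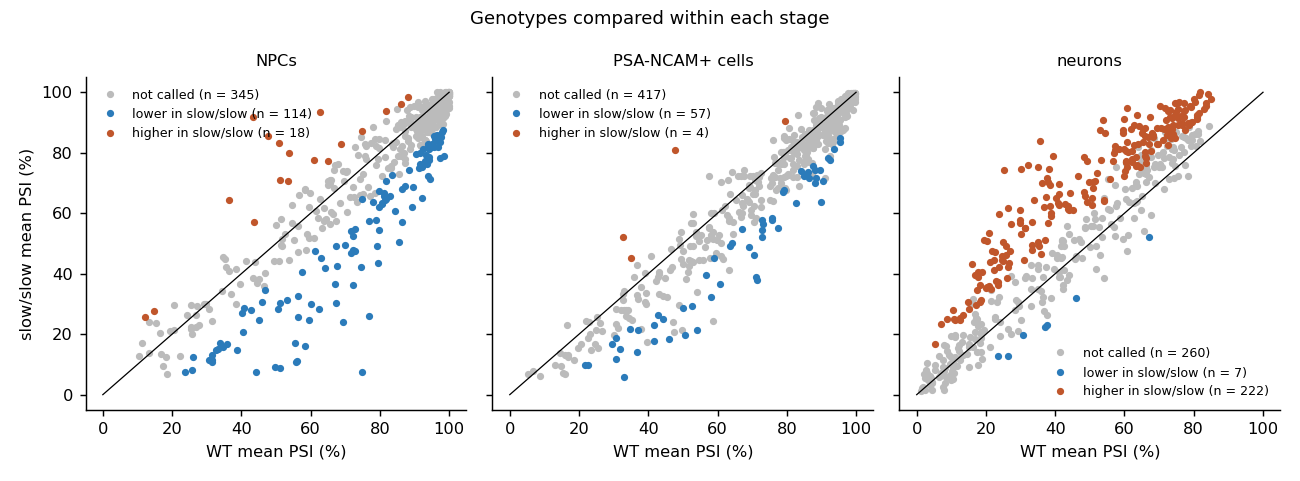
Mean PSI (%) of each lost exon in WT (x axis) and slow/slow cells (y axis) in NPCs, PSA-NCAM+ cells and neurons. Each point is an exon, blue where called lower and orange where called higher in slow/slow cells, and the line marks equal PSI. Called exons lie mostly below the line in NPCs (114 against 18) and PSA-NCAM+ cells (57 against 4) and above it in neurons, where the WT values were part of the choice of exons.

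In PSA-NCAM+ cells 57 of 478 exons were called lower and 4 higher in slow/slow samples, where 0.615% and 0.202% of all exons were. Among the 543 gained exons tested 18 were lower and 26 higher. Of the 114 exons lower in slow/slow NPCs, 110 had a negative difference here (median -11.5 points), and 44 of the 112 that were covered and tested were called lower. Of all 478 lost exons 370 were below 0 here, and of all 26191 exons 13987 were. The overlap of lower calls at these stages was not computed over all exons, so nothing is read from it. The largest falls were in the 33-base exon of Eml4, in 3 exons of Macf1, in Fat1 and in Auh (an RNA-binding enoyl-CoA hydratase). The Eml4 exon read 74.9, 72.5 and 67.1 in WT and 48.5, 31.3 and 33.6 in slow/slow cells, and Auh read 26.0, 29.1 and 44.1 in WT and 6.25, 6.58 and 5 in slow/slow cells. The 4 higher exons were those of Pbrm1, Map3k7, Zfand3 and Nap1l4 (a histone chaperone). Zfand3 read 80.8, 78.5 and 79.0 in WT and 91.7, 91.7 and 88.6 in slow/slow cells, and Nap1l4 read 38.7, 35.7 and 30.7 against 44.2, 48.7 and 43.1. Nap1l4 was also 1 of the 2 lost exons called higher in slow/slow neurons than in slow/slow ESCs, at 53.4, 55.1 and 57.1 against 47.7, 43.2 and 41.8.

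Cell makeup moved with genotype here too. The pluripotency markers summed to 1683 to 2301 CPM in WT and 844 to 863 in slow/slow PSA-NCAM+ cells, the neuronal markers to 71.2 to 100.3 and 227 to 526, and the progenitor markers to 708 to 922 and 1500.4 to 1737. The endoderm markers summed to 183 to 215 CPM and 198 to 278, the mesenchyme markers to 809 to 1109 and 979.6 to 2014, and the glial markers to 35.8 to 39.2 and 24.7 to 33.3. Their part in the exon results was not tested.

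The first slow/slow PSA-NCAM+ sample lay nearer to WT in several of these exons. For Nek1 the WT samples read 50.9, 35.9 and 32.0 and the slow/slow samples 38.3, 7.45 and 6.38, and for Kif13a they read 52.2, 37.9 and 50.9 and 47.9, 12.2 and 11.7. Neither exon was called. Without the first sample of both genotypes 109 of 478 exons were called, 102 lower and 7 higher, against 1.70% of all exons in either direction, and 53 of the 57 exons called lower with all samples were among the 102. Same-numbered PSA-NCAM+ samples deviated together. With limma on the logit of the reads and the replicate numbers ignored, 0 of 26191 exons (0.0%) passed. The limits were a false discovery rate (FDR) of 0.05 and a difference over 10 points. Of the 478 lost exons 106 had an unadjusted limma p under 0.05, and the matching count over all exons was not computed. With the replicate number as a block 77 of the 478 were called, 73 lower and 4 higher, against 1.07% of all exons.

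Whether the genotype effect differed between NPCs and PSA-NCAM+ cells was tested with an interaction term. None of the 471 lost exons tested and 0 of 25945 exons in all (0.0%) passed by limma, with 91 lost exons at an unadjusted p under 0.05 (108 with the replicate block). The matching unadjusted counts over all exons were not computed. Without the block the same method also passed 0 exons for the genotype in PSA-NCAM+ cells alone, so it had little power here. A difference between the effects at these stages was thus not detected, and it is not excluded.

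In ESCs and neurons the genotype comparison shares its WT samples with the rule and is given without a reading. In ESCs 38 of 489 exons were called lower and 11 higher, where 0.382% and 0.299% of all exons were. In neurons 7 were lower and 222 higher, where 1.28% and 1.53% of all exons were. The median difference was -1.35 points in ESCs and 10.4 points in neurons, and against WT neuron samples left out of the choice it was 11.2, 8.26 and 9.15 points. Of the 114 exons lower in slow/slow NPCs, 32 were called lower in ESCs, and in neurons 26 were called higher and 3 lower. Lower calls in NPCs joined to higher calls in neurons were found in 0.242% of all exons tested at both stages.

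**Figure D4:**
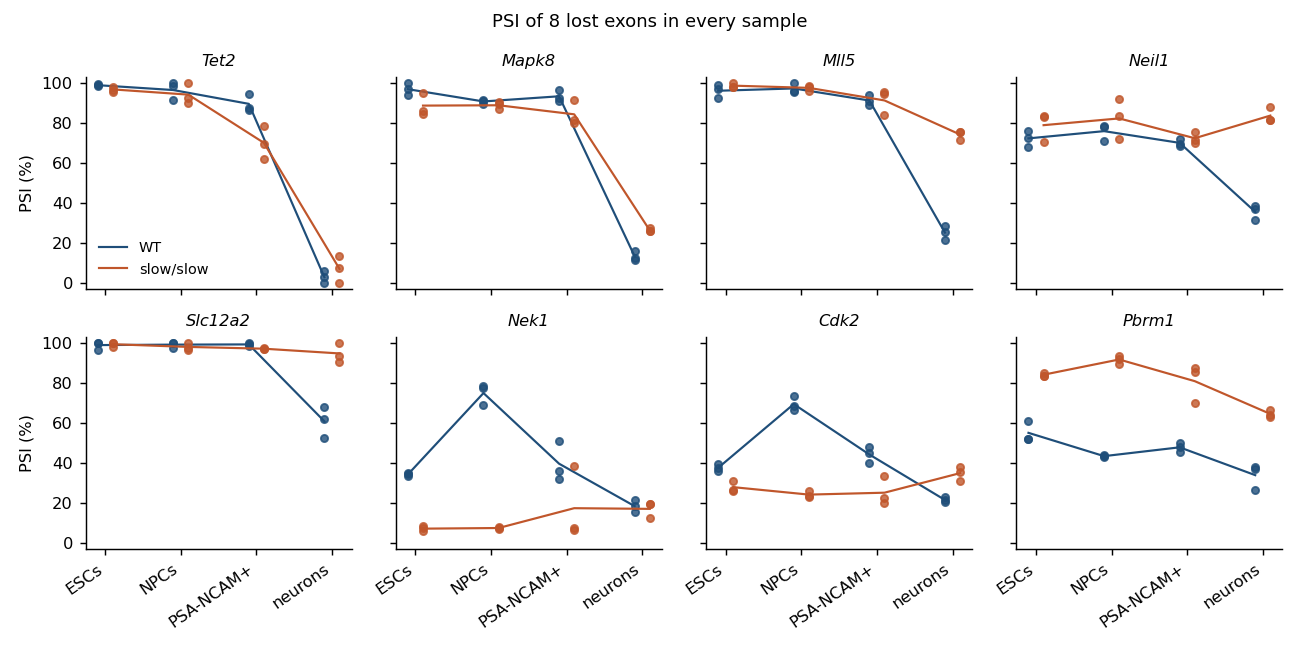
PSI (%) of 8 lost exons in every sample at the 4 stages, with 1 point per sample and lines through the means of 3 samples, in WT (blue) and slow/slow cells (orange). Tet2 fell to below 15 in both genotypes, Mapk8 and Mll5 fell less far in slow/slow neurons, and Neil1 and Slc12a2 stayed above 80 there. Nek1 and Cdk2 had their highest WT values in NPCs, and Pbrm1 was higher in slow/slow cells at every stage.

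The exons were also read by the role of their genes, from 6 gene lists. Of all covered exons 1.85% were lost ones. The cytoskeleton list had 30 lost exons in 18 genes of 443 covered exons (6.77%). Of these, 23 were called lower in slow/slow neurons than in slow/slow ESCs (57.9% of all lost exons and 1.63% of all exons were), their median ratio was 0.651, and 13 of 30 were called lower and 0 higher in slow/slow NPCs against WT (23.9% and 3.77% of all lost exons and 1.98% and 0.633% of all exons were). In NPCs 4 of 8 exons of the adhesion list and 4 of 15 of the membrane traffic list were called lower and 0 higher, 3 lower and 2 higher of 22 in the kinase and GTPase list, 1 lower and 2 higher of 12 in the chromatin list, and 0 of 7 in the RNA binding list. Exons of the same gene, as among the 30 from 18 genes, are not independent, and calls were not counted per gene. With so few exons a list, these shares were not compared by a test.

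Adhesion, junction and polarity genes held 8 lost exons of 315 (2.54%), all 8 of them called lower in slow/slow neurons, with a median ratio of 0.753. The 27-base exon of Mark3, a microtubule-regulating kinase, went from 72.4, 73.5 and 78.5 in slow/slow ESCs to 22.1, 17.3 and 19.7 in slow/slow neurons, a change of -55.1 points against -55.6 in WT. The exon of Nf2, which encodes the tumour suppressor merlin, changed by -54.5 points in slow/slow cells and by -53.2 in WT, and in PSA-NCAM+ cells it was lower in slow/slow samples (45.1, 51.1 and 50.8) than in WT (68.5, 69.6 and 68.8). Both exons fell by similar amounts in the 2 genotypes.

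Kinase and GTPase signalling genes held 23 lost exons of 632 (3.64%), of which 18 were called lower in slow/slow neurons, with a median ratio of 0.579. Besides Mapk8 they include Arhgap39, a GTPase-activating protein, which fell from 82.5, 80.3 and 82.9 to 31.3, 30.7 and 29.6 in slow/slow cells, and Git2, an Arf GTPase-activating protein, which fell from 79.8, 81.9 and 78.8 to 32.7, 33.0 and 25.9. Git2 was lower in slow/slow cells in both NPCs and PSA-NCAM+ cells, by 11.4 and 18.1 points. Membrane traffic genes held 15 lost exons of 437 (3.43%), with 9 called lower in slow/slow neurons and a median ratio of 0.494. The exon of Epn1, an endocytic adaptor, was at 18.2, 21.3 and 23.5 in WT neurons and at 59.0, 52.3 and 49.6 in slow/slow neurons, from ESC means of 91.9 and 90.2. Ktn1, a kinesin-binding protein of the endoplasmic reticulum, fell by 40.8 points in WT and by 7.32 in slow/slow cells, and the latter was not called.

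Chromatin and transcription genes held 12 lost exons of 707 (1.70%), with 8 called lower in slow/slow neurons and a median ratio of 0.661. Mll5, a chromatin regulator, had an exon at 21.6, 25.7 and 28.6 in WT neurons and at 71.6, 75.6 and 75.7 in slow/slow neurons, where both genotypes had been at 92.6 or more in every ESC sample. Ep400, a chromatin remodeller, was at 49.5, 57.5 and 46.1 against 65.8, 72.9 and 66.3. RNA binding and processing genes held 7 lost exons of 376 (1.86%), of which 4 were called lower in slow/slow neurons, with a median ratio of 0.382. Ythdc1, a reader of methylated adenosine, was at 57.8, 66.9 and 62.1 in WT and 78.8, 78.3 and 84.2 in slow/slow neurons. Fmr1, whose product binds neuronal mRNAs, was at 19.2, 22.9 and 20.2 against 33.6, 31.1 and 43.2. The lists differ in their WT falls, with medians from -22.0 points in membrane traffic to -37.3 in adhesion, and they were not compared with each other by a test.

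Some lost exons lay next to a gained exon. There were 44 lost exons next to an exon of the same gene gained in WT neurons, in 46 pairs with 0 overlaps, and 74 of the 412 genes held a gained exon anywhere. Shares over all covered exons and genes were not computed, so nothing is read from these counts. Not every pair traded places: in Mark3 both exons were included in WT ESCs (mean PSI 86.3 and 66.4). In Mapk8 the gained exon rose from 6.54, 2.97 and 4.62 in WT ESCs to 88.0, 88.7 and 83.1 in WT neurons and from 10.6, 10.1 and 9.52 to 73.3, 77.1 and 70.9 in slow/slow cells. Gain and loss thus mirrored each other in both genotypes (81.9 and -83.6 points in WT, 63.7 and -62.4 in slow/slow cells). In Dlg3, a synaptic scaffold, the lost 100-base exon fell to 19.3, 22.1 and 25.8 in WT neurons and to 48.6, 41.6 and 43.3 in slow/slow neurons while the gained 46-base exon reached 83.9, 80.0 and 74.4 and 46.1, 49.8 and 50.3. In Phf21a, a histone reader, the lost 164-base exon fell by 65.4 and 51.0 points and the gained 23-base exon rose by 70.0 and 60.9 points.

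In Cadm1 the gained exon started higher in slow/slow cells. The lost exon fell to 23.5, 31.8 and 26.7 in WT neurons and to 61.2, 56.4 and 51.9 in slow/slow neurons, but the gained exon reached 91.0, 89.8 and 90.2 in WT and 91.7, 90.4 and 90.6 in slow/slow neurons. That exon was at 28.5, 35.2 and 27.1 in WT ESCs and at 43.8, 50.7 and 49.4 in slow/slow ESCs, and at 20.2, 20.3 and 19.0 in WT NPCs against 47.9, 57.4 and 53.2 in slow/slow NPCs. Loss and gain from ESCs to neurons were -72.2 and 60.1 points in WT and -42.3 and 42.9 points in slow/slow cells, so that they were of like size in slow/slow cells. The PSI values of the exons summed to more than 100 in every sample of both genotypes at every stage. The exons printed above as the 2 Cadm1 lines are consecutive in some transcripts.

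The lost exons had few features in common. Their median length was 96 bases (72 in gained exons, 115 in exons that changed by less than 15 points), and 7 of them were at most 27 bases long, against 102 gained exons. A length that is a multiple of 3 was found in 56.2% of lost, 73.3% of gained and 38.8% of the other exons. Of the lost exons 399 matched a GENCODE exon, of which 327 were fully coding, 37 partly coding, 18 in untranslated regions and 17 in noncoding transcripts. The 201 coding exons that keep the reading frame had a median ratio of 0.589 and a median PSI of 42.6 in WT neurons, and the 126 that shift it had 0.492 and 63.7. Introns on both sides had median lengths of 1748 and 1551 bases, close to those of the other exons at 1671 and 1683. The median retention of the flanking introns, on the upstream side, was between 2.02% and 2.85% in all 8 groups.

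The levels of neuronal splicing regulators were read from the gene counts. No covered exon of the regulator list was itself a lost exon (0 of 49, where 1.85% of all covered exons were), and nothing is read from so small a count. Of 30 regulators tested with edgeR 20 rose and 4 fell from ESCs to neurons in WT, and 22 rose and 4 fell in slow/slow cells. Of all genes 82.8% and 82.5% were called in these comparisons. Ptbp1 was at 1036, 1048 and 1167 CPM in WT ESCs, 624, 660.5 and 616 in WT NPCs and 277, 334 and 332 in WT neurons, and in slow/slow cells at 1155, 1258 and 1116, 954, 909 and 939, and 290, 294 and 277. It was thus higher in slow/slow NPCs (log2 change 0.56 ± 0.12 SE, edgeR FDR 0.00071), and its difference in neurons (-0.13 ± 0.12) did not pass the test (edgeR FDR 0.38). Ptbp2 was at 45.9, 44.0 and 44.4 CPM in WT NPCs and 88.4, 106 and 94.6 in slow/slow NPCs (1.10 ± 0.08, edgeR FDR 1.6e-09).

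Against WT, 15 regulators were higher and 2 lower in slow/slow NPCs, 19 and 5 at the PSA-NCAM+ stage, and 6 and 11 in neurons. Of all genes 56.7%, 56.7% and 51.9% were called at these stages, so that the share of regulators called was near that of all genes in NPCs and neurons. Srrm4, the activator of neuronal microexons, did not pass the test in neurons (0.17 ± 0.24, edgeR FDR 0.57), at 86.8, 79.1 and 81.4 CPM in WT and 93.8, 96.1 and 88.9 in slow/slow cells. Nova1 was lower there, at 322, 316 and 301 against 136, 132 and 127 CPM (-1.25 ± 0.18, edgeR FDR 1.1e-05), and so was Celf4, at 383, 350 and 354 against 125, 135 and 136 CPM (-1.46 ± 0.12, edgeR FDR 1.0e-08). Rbfox2 was lower in slow/slow ESCs, NPCs and neurons, with 690, 619 and 643 against 476, 485 and 462 CPM in neurons. The 6 regulators that were higher in slow/slow neurons were Rbm47 (1.89 ± 0.29, edgeR FDR 1.7e-05), Mbnl3 (1.86 ± 0.50, edgeR FDR 0.0040), Esrp2 (1.61 ± 0.36), Qk (1.04 ± 0.40), Elavl1 (0.39 ± 0.10) and Ptbp2 (0.34 ± 0.08). Rbm47 was at 1.06, 0.931 and 1.11 CPM in WT and 3.71, 3.68 and 4.14 in slow/slow neurons, and Esrp2, an epithelial splicing regulator, at 1.80, 1.96 and 2.18 and 5.78, 5.83 and 6.66. Both were thus low in either genotype. Qk was lower still, at 0.138, 0.209 and 0.270 CPM in WT and 0.223, 0.373 and 0.767 in slow/slow neurons, and its samples overlapped between genotypes.

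The 7 neuronal markers summed to 3594 to 3918 CPM in WT neurons and 2794 to 2969 in slow/slow neurons, the progenitor markers to 1874 to 2165 and 2240 to 2558, the mesenchyme markers to 349 to 472 and 643 to 680, and the epithelial markers to 245 to 302 and 502 to 527. The 8 glial markers summed to 183 to 190 and 146 to 174 CPM, with Gfap and Aqp4 under 4 CPM in every neuron sample. Single markers moved further than these sums, or the other way. Mean CPM in WT and slow/slow neurons was 208 and 60.2 for Snap25, 221 and 60.3 for Syn1 and 173 and 58.7 for Syt1. Tubb3 was at 928 and 1191. Among progenitor markers Hes5 was at 14.3 and 100, Pax6 at 12.3 and 80.8 and Fabp7 at 676 and 625. Olig2 was at 22.8 and 0.88 and Sox10 at 0.93 and 7.07. Among mesenchyme markers Lum was at 0.73 and 34.4 and Acta2 at 52.4 and 11.2. The part of these levels in the exon differences was not tested.

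**Figure D5:**
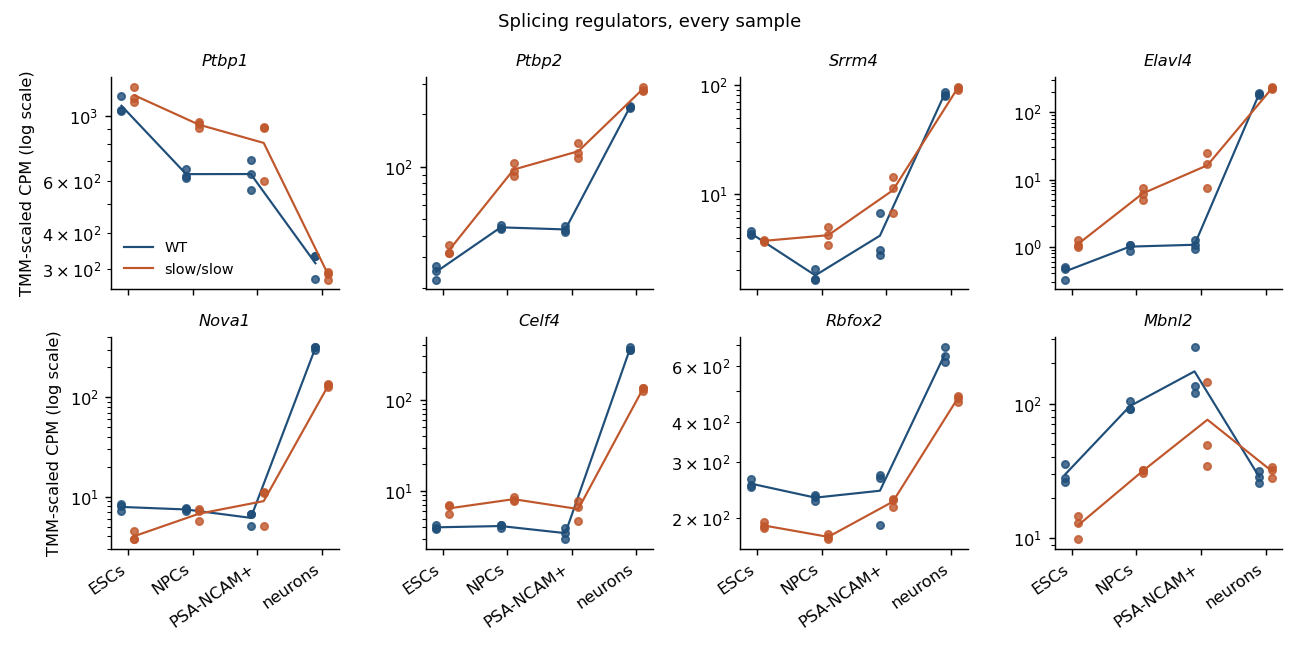
Level of 8 splicing regulators in CPM scaled by the trimmed mean of M values (log axis) in every sample at the 4 stages, with 1 point per sample and lines through the means of 3 samples, in WT (blue) and slow/slow cells (orange). Ptbp2, Srrm4 and Elavl4 were higher in slow/slow NPCs and PSA-NCAM+ cells, and Nova1 and Celf4 were lower in slow/slow neurons.

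The genes that hold the lost exons did not move as a group in expression. Of 407 host genes tested with edgeR, 164 fell and 168 rose from ESCs to neurons in WT, with a median log2 change of 0.01, where 82.8% of all genes were called, and 174 fell and 149 rose in slow/slow cells, where 82.5% were. Between genotypes 77 were lower and 100 higher in slow/slow ESCs (40.4% of all genes called), 107 and 143 at the NPC stage (56.7%), 96 and 142 at the PSA-NCAM+ stage (56.7%) and 128 and 75 in neurons (51.9%). The median ratio of exon change was 0.516 for the 195 exons in genes that fell in WT neurons and 0.552 for the 192 in genes that rose. Mapk8 and Mll5 rose in WT neurons as their exons were lost, with log2 changes of 2.46 ± 0.07 and 2.49 ± 0.09 SE, and Tet2 and Cdk2 fell by 2.20 ± 0.14 and 2.42 ± 0.10.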

How the data were processed

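Libraries of poly(A)+ RNA from 24 samples had been read as paired ends, which the authors aligned to mm9 and quantified with vast-tools version 1. Per the labels, reads had been demultiplexed with bcl2fastq 2.17.1.14. What the authors deposited were gene-level raw counts, not normalised, and for each splicing event and sample a percent value (PSI) with other text fields of quality scores and the corrected inclusion and exclusion reads. A second deposited table held 1 PSI per group and the authors' calls and was not used. PSI rests on junction reads alone, so exons of weakly expressed genes lack coverage and were left out, and PCR duplicates make counting error a lower limit.

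Exons were kept where the first quality score was SOK, OK or LOW in all ESC and neuron samples, and tests in NPCs or PSA-NCAM+ cells needed the same there. Beta posteriors of the reads of each sample were pooled by group, in the manner of the diff module of vast-tools that the authors had used, and a difference was called over 10 points with a probability over 0.95, which is how the study's threshold was read. The interaction and the alternatives with a replicate block used limma 3.58.1 on the logit of reads with 0.5 added, weighted by reads, with Benjamini-Hochberg adjustment over all exons. Gene counts were tested with edgeR 4.0.16 in R 4.3.3 (quasi-likelihood F test, TMM, filterByExpr, 16627 genes, FDR under 0.05) in a model of all 8 groups. Each script was tested on simulated reads or counts. Python 3.11.15 and numpy 2.4.6 were used, and DESeq2 1.42.0 for alternatives.

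The labels number the replicates 1 to 3 in every group. Over 3728 exons, deviations from the group means of same-numbered WT and slow/slow samples correlated at 0.19 to 0.39 in PSA-NCAM+ cells, so those numbers pair samples there, and at -0.06 to 0.07 at the other stages.

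The members and lists were chosen with earlier results of these data known. Exons are named by these rules: the 8 largest WT falls; the 8 lowest ratios of slow/slow to WT change among WT falls of at least 25 points; the 6 largest called differences per direction between genotypes in NPCs and PSA-NCAM+ cells; the 3 exons on each side of the threshold; the 4 largest falls next to a gained exon; the largest falls in each gene list; and the exons most opposite between NPCs and PSA-NCAM+ cells past the interaction threshold, which named none. An exon of the cytoskeleton list named by these rules is not reported here. The 7 marker lists, also of endoderm, mesenchyme, epithelium and glia, were summed as CPM.

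Deposited symbols and mm9 positions were kept. Sequences came from GENCODE vM21 (GRCm38) through exons of identical strand, length and flanking intron lengths, which matched 399 of the 489, and no position was converted between builds.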

Additional observations from a re-analysis of the deposited data

Results flagged for a closer look

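In 26 exons the genotypes were called different in opposite directions at 2 stages: slow/slow cells were lower than WT in NPCs and higher than WT in neurons, with no overlap of samples at either stage. The difference between the stages was not tested, since WT neuron values chose the exons. Of all exons tested at both stages 0.242% had this combination, but 114 of the 477 lost exons were lower in NPCs and 222 of 489 were higher in neurons, where low WT values had chosen the exons, so that nothing is read from the count. Among the exons named above, Cdk2 differed by -45.2 points in NPCs and 13.4 points in neurons, Ocel1 by -34.0 and 21.5, Ddb2 by -29.4 and 26.9, and Fam193b by -25.4 and 18.4. Ktn1 differed by -14.8 and 31.6 points and 5830418K08Rik by -13.0 and 32.2. At both stages the slow/slow values lay between the WT levels of NPCs and neurons.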

How the results depend on the processing

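Of the alternatives to the counts and medians of the comparisons, 125 of 146 stayed near the value given, and 21 moved it. For counts, near meant a share called in either direction within a set fold of it, so direction was not checked. For medians it meant within the SD between slow/slow samples. The interaction alternatives count as near because none of them called an exon. Stricter calls left 3.35% (over 15 points) and 3.56% (probability over 0.99) of the lost exons called between slow/slow NPCs and ESCs instead of 7.97%, and 7.53% and 6.49% between genotypes in PSA-NCAM+ cells instead of 12.8%. That share was 0% with limma and 16.1% with the replicate block, and 10.9% to 22.8% without single replicates or, as chosen after seeing the data, without replicate 1 of both genotypes. It rose to 21.3% without slow/slow PSA-NCAM+ replicate 1. The replicate block changed no other call of direction. Shares of host genes called between genotypes ran from 23.6% to 55.0% in ESCs, 40.0% to 70.8% in NPCs and 37.3% to 71.0% in PSA-NCAM+ cells without one replicate number. The ratio of slow/slow to WT change was 0.533, and 0.575 at a WT fall of 25 points, 0.837 with exons chosen in slow/slow cells, and 0.567 and 0.566 with WT replicates 2 and 3 held out. Against held-out WT samples, added after seeing the data, the neuron difference was 8.26 and 9.15 instead of 10.4 points for replicates 2 and 3, and the ESC difference -0.945, -0.725 and -0.492 instead of -1.35 points. Of 645 values for named exons, 606 kept their call, 27 lost it, 3 gained one and 9 changed sign. The sign changes were uncalled slow/slow changes without one replicate: -5.29 to 7.35 points in Atp11a, -1.93 to 2.79 in Tmem175, -1.57 to 2.12 in 5830418K08Rik and -6.95 to 4.77 in Ddb2. The causes were not tested.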
